A study of Mus musculus with 72 samples.

Results

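Fatty acid oxidation and ketogenesis genes were followed in the colon of 72 mice as a module of 32 listed genes. They were chosen by name for their part in these pathways, with earlier results of these data known. Each gene was represented by 1 probe set of an Affymetrix array, the one with the highest mean over the 72 arrays among probe sets that map to a single gene symbol. Of the 32 genes, 31 were measured in this way and Acsl1 was not analysed here. All 31 lay above the level at which genes were left out as dim, so that none entered through a group in which it was high.

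All mice were wild type Balb/c and each array held the RNA of the colon of 1 mouse. Colitis was induced on day 0 with trinitrobenzene sulfonic acid (TNBS), a hapten given into the rectum that provokes acute inflammation, at 70 µg per g body weight as a 2% solution, and the mice were killed on day 4. The 6 groups comprised 8 naive mice without TNBS, 8 TNBS mice without further treatment, and 4 TNBS groups injected 1 h before the hapten. Of these, 15 mice received an IgG2a control antibody raised to human CD20 (10 mg/kg), 12 received TNFR-Ig (0.3 mg/kg), 14 received anti-TWEAK antibody (10 mg/kg), and 15 received both agents, called the combination. TNFR-Ig, a soluble TNF receptor fused to an antibody tail, captures the cytokine TNF, and TWEAK belongs to the same cytokine family. No control antibody was given with TNFR-Ig. The mice came from experiments numbered 7 (34 mice) and 10 (38 mice) in the labels, and naive mice were in experiment 10 alone. All arrays of experiment 10 and 2 combination arrays of experiment 7 belong to a second array run, the other arrays to the first. Experiment and array run can therefore hardly be told apart. TNBS colitis is a chemical injury. The whole colon holds epithelium, muscle and immune cells and may carry attached tissue. In these bulk values fewer cells of a type and less RNA per cell therefore cannot be told apart.

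Epithelial cells of the colon burn short-chain fatty acids made by gut bacteria. Long-chain fatty acids are activated to acyl-CoA, carried into mitochondria by the carnitine shuttle, and shortened in a spiral of dehydrogenation, hydration, a second dehydrogenation and thiolysis, whose electrons reach the respiratory chain through an electron transfer flavoprotein. Peroxisomes shorten very long chains, thioesterases release free fatty acids from acyl-CoA, and acetyl-CoA can leave as ketone bodies. The nuclear receptor PPAR alpha, which senses fatty acids, and the coactivator PGC-1 alpha switch on many genes of these steps.

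The upstream sequences of the genes on which the results turn are given here, since Ppara and Acot1 had the largest changes in colitis, Acot2 varied with Acot1, and Hadha and Hadhb share one promoter. RefSeq (GRCm38.p6) promoter windows, from 250 bases before to 50 bases after the start site, were at hand for 26 of the 31 genes. Capitals mark GGGCGG, the GC box bound by Sp factors, upstream of Ppara (chr15:85735526-85735775, + strand) and in the 228 bases that the windows of Hadha (- strand) and Hadhb (+ strand) share, chr5:30155003-30155230 on the + strand, which lie between their start sites. In Acot1 (chr12:84009252-84009501, + strand) and Acot2 (chr12:83987611-83987860, + strand) they mark CCAAT, or its complement ATTGG.
Ppara: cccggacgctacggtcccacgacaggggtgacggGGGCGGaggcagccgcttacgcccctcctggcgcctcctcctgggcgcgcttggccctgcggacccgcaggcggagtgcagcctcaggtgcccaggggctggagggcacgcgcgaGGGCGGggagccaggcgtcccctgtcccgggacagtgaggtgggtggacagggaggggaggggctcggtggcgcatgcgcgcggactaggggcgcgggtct
Acot1: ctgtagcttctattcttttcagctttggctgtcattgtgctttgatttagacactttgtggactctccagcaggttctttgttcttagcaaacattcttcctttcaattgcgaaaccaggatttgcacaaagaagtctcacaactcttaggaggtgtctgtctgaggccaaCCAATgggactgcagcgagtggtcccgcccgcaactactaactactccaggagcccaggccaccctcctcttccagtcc
Acot2: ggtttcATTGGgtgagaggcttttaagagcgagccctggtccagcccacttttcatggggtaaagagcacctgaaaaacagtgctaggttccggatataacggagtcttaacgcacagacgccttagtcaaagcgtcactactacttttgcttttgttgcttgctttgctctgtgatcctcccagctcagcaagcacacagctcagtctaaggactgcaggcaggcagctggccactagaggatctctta
Hadha and Hadhb: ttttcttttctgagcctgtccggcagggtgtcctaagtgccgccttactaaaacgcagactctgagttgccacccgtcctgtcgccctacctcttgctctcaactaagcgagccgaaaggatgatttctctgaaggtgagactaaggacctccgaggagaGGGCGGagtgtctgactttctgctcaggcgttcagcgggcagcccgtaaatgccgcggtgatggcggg
The GC boxes of Ppara start 216 and 101 bases before the start site. Searched on both strands over the 300 bases of each window, GGGCGG stood in a promoter of 19 of the 26 genes, against 35.66% of all 32851 RefSeq promoters, and CCAAT in 11 of 26, against 37.41% of all. The units differ, as members were counted by gene, Bdh1 with 2 windows, and the others by window. Hadha and Hadhb, which share a GC box, were counted separately, and the shares were not tested. Acot1 and Acot2 lie 21.6 kb apart on chromosome 12, and their 250 upstream bases were identical in 128 of 283 aligned columns (45.2%), with the CCAAT box 79 to 75 bases before the start site of Acot1 and 244 to 240 bases before that of Acot2. The start sites of Hadha and Hadhb lie 273 bases apart. A match is a description of the letters and not a binding site.

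Levels are log2 signals as deposited, array medians lay between 4.60 and 4.77, and a level cannot be set against that of another probe set. Defining markers of colon epithelium were high in every mouse: Epcam lay between 14.62 and 14.89, Vil1, a brush border protein, between 13.40 and 13.92, and Krt20, of surface colonocytes, between 13.66 and 14.30. Of 6 markers of liver, the main ketogenic organ, 5 were dim: Alb, Ahsg, Fgb and Serpina1c lay between 2.08 and 2.12, at or near the floor of the table, and Apoa2 between 2.22 and 2.59. The other, Ttr, a carrier protein that other tissues also make, lay between 11.44 and 12.75. Some markers of other tissues varied widely between mice. Cela2a, an enzyme of exocrine pancreas, ran from 2.08 to 13.32, Adipoq, of fat cells, from 2.08 to 11.91 and Myh1, of skeletal muscle, from 3.81 to 14.69. Cela1, also listed for exocrine pancreas, ran from 11.80 to 14.11. The source of these signals was not tested. The number of arrays limits the precision of every value. Changes below are log2 differences with their standard error (SE) from limma, fitted to all arrays with a term for group and a term for experiment, and the threshold was 0.05 on the p adjusted after Benjamini and Hochberg over all 12534 genes tested.

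The comparison of untreated TNBS mice with naive mice asked what acute colitis changed. The regulators Ppara and Ppargc1a were lower in colitis and the thioesterase gene Acot1 was higher. Most enzymes of the oxidation spiral itself moved little with the probe sets used. Of the 31 genes, 8 passed the test, 2 higher and 6 lower, against 47.8% of all genes tested (22.2% higher and 25.6% lower). The median change of the 31 genes was -0.05, beside -0.01 over all genes.

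Ppara, the fatty acid receptor, lay between 8.48 and 9.54 (median 8.83) in naive mice. In untreated mice it was 7.29, 7.48, 6.97 and 8.57 in experiment 7 and 7.84, 6.90, 8.44 and 7.18 in experiment 10. A single untreated mouse of experiment 7, at 8.57, reached into the naive range. The fitted change was -1.11 ± 0.33 (SE), a 2.16-fold fall (limma adjusted p = 0.00416). Ppargc1a, which encodes PGC-1 alpha, lay between 11.58 and 11.98 (median 11.71) in naive mice. In untreated mice it was 10.64, 10.76, 10.79 and 11.10 in experiment 7 and 10.96, 10.85, 11.32 and 11.05 in experiment 10, all below the lowest naive mouse. It fell by 0.87 ± 0.15 (SE), or 1.83-fold (limma adjusted p = 1.14e-06).

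Acot1, a thioesterase of the cytosol and a known PPAR alpha target, lay between 5.81 and 6.96 (median 6.56) in naive mice. In untreated mice it was 7.70, 8.51, 8.65 and 7.41 in experiment 7 and 7.05, 8.06, 7.32 and 8.20 in experiment 10, all above the highest naive mouse. It rose by 1.30 ± 0.26 (SE), or 2.47-fold (limma adjusted p = 3.08e-05), the opposite direction to Ppara in the same mice. Acot2, its mitochondrial paralogue, overlapped between the groups, from 10.28 to 10.76 in naive and from 10.29 to 11.76 in untreated mice, and its change of 0.24 did not pass (limma adjusted p = 0.252). Acot1 and Acot2 are close paralogues, as are Acaa1a and Acaa1b, and hybridisation of one transcript to the probes of the other was not tested.

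Among the genes of entry, activation and the carnitine shuttle, 1 of 6 passed. Slc25a20, the carnitine-acylcarnitine carrier of the inner membrane, fell by 0.15 ± 0.06 (SE; limma adjusted p = 0.0374), with all 8 untreated mice below the naive range. Cpt1a, the rate-limiting carnitine palmitoyltransferase, changed by -0.13 and Slc27a2, an acyl-CoA synthetase and transporter, by -0.32, and neither passed. Of the 9 spiral enzymes, Acadl, a long-chain dehydrogenase, rose by 0.17 ± 0.05 (SE) and Acadm, the medium-chain dehydrogenase, fell by 0.18 ± 0.07 (SE), with limma adjusted p of 0.00543 and 0.0279. The other 7, with Hadha and Hadhb of the trifunctional protein among them, lay between -0.18 (Acads) and 0.06 (Acaa2). Further probe sets above the dim level were read as raw group means, untreated minus naive, without a test. They gave -0.48 for Slc25a20 (-0.19 with the one used), -0.44 for Decr1 (-0.13), and -0.09 and -0.32 for Hadhb (-0.01). Those of Hadh gave -0.01 and -0.15 (-0.06), of Cpt1a -0.07 and -0.05 (-0.13), and of Acaa2 0.06 and 0.00 (0.07). Eci1, an enoyl-CoA isomerase for unsaturated chains, fell by 0.27 (SE 0.11), and Bdh1, which interconverts the ketone bodies acetoacetate and beta-hydroxybutyrate, by 0.18 (SE 0.07), with limma adjusted p of 0.0457 and 0.0366. None of the 3 electron transfer genes passed at the threshold, with changes between -0.05 and -0.02. The 4 peroxisomal genes did not pass either, although Ehhadh, the bifunctional enzyme, was at -0.29 (limma adjusted p = 0.0664) and Acaa1b, a thiolase, at -0.76 with an SE of 0.59.

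The value ranges of naive and untreated mice did not overlap for 3 genes, Slc25a20, Ppargc1a and Acot1, against 15.9% of all genes tested. Since naive mice were in experiment 10 alone, the comparison was also made there, with 4 untreated mice. In that experiment, with the spread of all mice, Ppara was at -1.29 ± 0.38 (SE), Ppargc1a at -0.72 ± 0.16 and Acot1 at 1.14 ± 0.30, and all 3 passed. There 11 members passed, 1 higher and 10 lower (41.9% of all genes), and with experiment 10 fitted alone 17 passed, 2 higher and 15 lower (47.9% of all genes). A fit of untreated and naive mice alone called 14 (41.0% of all genes), so that the number of smaller changes called depended on the arrays in the fit. Leaving out 1 mouse at a time gave 4 to 10 calls, the fewest without untreated replicate 2 of experiment 10. Ppara, Ppargc1a, Acot1 and Acadl kept their calls each time, but Acadl (0.13, adjusted p = 0.111) and Acadm (-0.19, adjusted p = 0.0586) did not pass in the fit of untreated and naive mice alone. When 1 mouse was left out, Eci1 lost its call in 10 of 16 such fits, Slc25a20 and Bdh1 in 7 each and Acadm in 2.

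**Figure D1:**
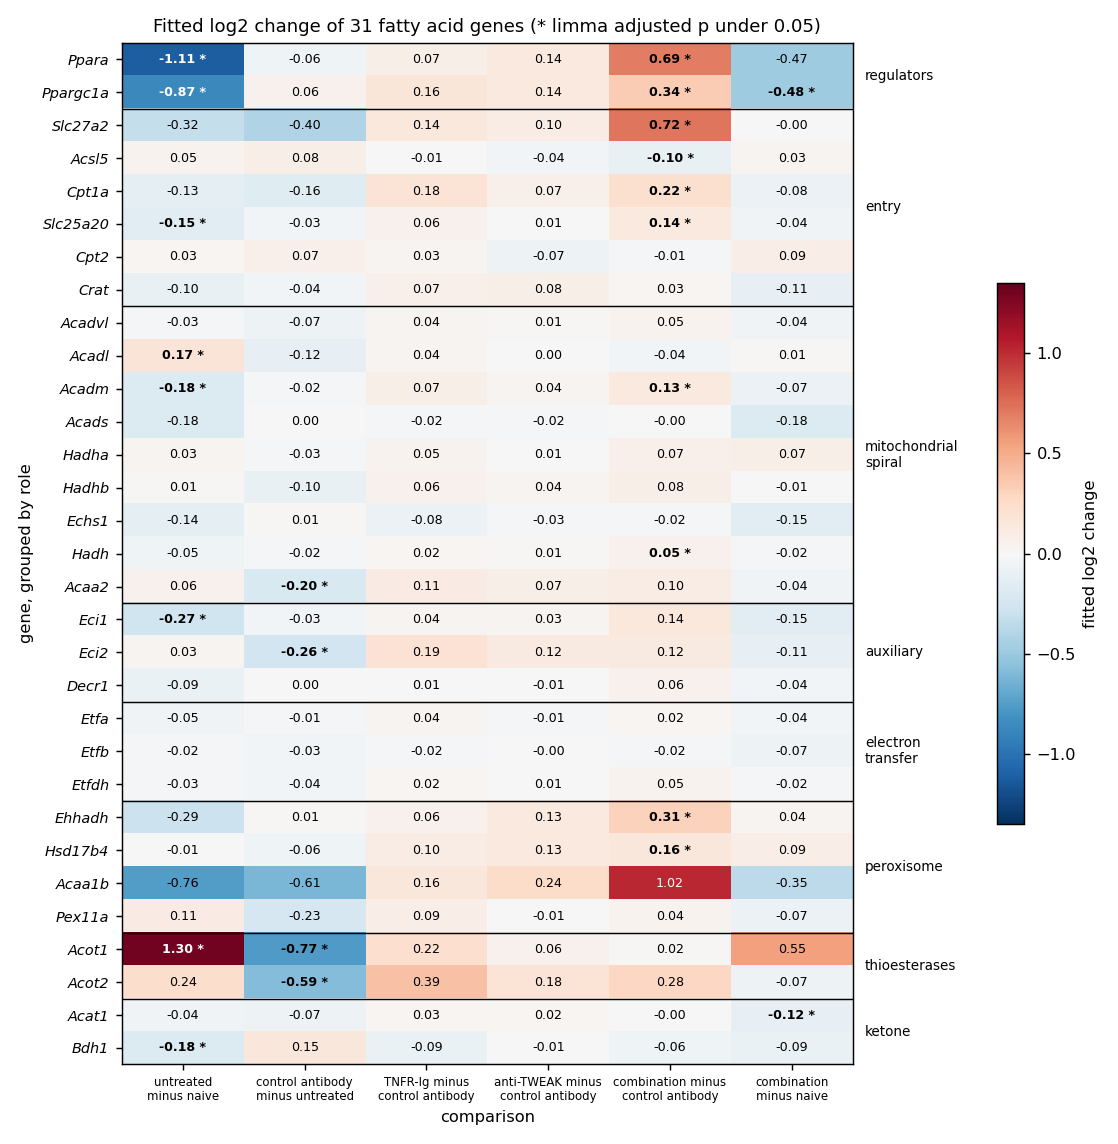
Fitted log2 change of the 31 genes, grouped by role in rows, in 6 comparisons in columns; colour and number give the change and an asterisk marks a limma adjusted p under 0.05. Ppara and Ppargc1a were lower in untreated than in naive mice and higher with the combination than with the control antibody, Acot1 was at 1.30 in colitis and -0.77 with the control antibody, and the columns of TNFR-Ig and anti-TWEAK hold no asterisk.

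The other pathway genes were counted by role, beside 22.2% of all genes higher and 25.6% lower in colitis. Of 16 other regulators, 10 fell and none rose at this threshold, led by Lpin1 (-0.92), a coactivator and phosphatidate phosphatase, Pparg (-0.75) and Ppard (-0.72), the other PPAR receptors. Of 13 other genes of uptake and activation, 6 fell and 1 rose: Fabp1, the liver-type fatty acid binding protein, was at -1.97 ± 0.64 (SE), Slc22a4, a carnitine-related transporter, at -1.41 (SE 0.30), Acsf2, an acyl-CoA synthetase, at -0.55, and Acsl4, which prefers arachidonic acid, at 0.50. Slc22a4 lay near the floor of 2.077, with a mean of 3.89 in naive and 2.70 in untreated mice. Of 11 other mitochondrial genes, 3 fell, about the share over all genes: Acad11 (-0.56), Acad10 (-0.50) and Mcee (-0.20). Of 15 other peroxisomal genes, 7 fell and 1, Pecr, rose by 0.29. Of 4 other ketone body genes, 3 fell, among them Slc5a8, a transporter of butyrate and ketone bodies (-0.48), Acss2 (-0.25) and Oxct1, which activates acetoacetate for use (-0.18).

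Of 10 other known PPAR targets, 2 rose and 3 fell, close to the shares over all genes. Angptl4, an inhibitor of lipoprotein lipase, rose by 3.17 ± 0.40 (SE), or 8.99-fold (limma adjusted p = 1.25e-09), and Creb3l3, a transcription factor of fasting metabolism, by 1.69 (SE 0.32). Acot4, a peroxisomal thioesterase, fell by 0.73 (SE 0.21), Retsat by 0.35 and Txnip by 0.18.

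Cell type markers moved in the same comparison. Of 17 colonocyte markers, 12 were lower and 1, Alpi, higher, and their mean level ran from 13.45 to 13.54 in naive mice and from 12.90 to 13.33 in untreated mice. All 10 smooth muscle markers were lower, all 10 macrophage markers higher (mean level from 8.26 to 8.90 against 9.45 to 10.79) and all 7 tested neutrophil markers higher (2.88 to 4.64 against 8.66 to 11.41). Their part in the changes of the fatty acid genes was not tested.

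Colitic mice given the control antibody were set against colitic mice left untreated, which asks what an injected antibody alone changed. The thioesterase genes Acot1 and Acot2 were lower, the reverse of the direction of Acot1 in colitis, and Ppara and Ppargc1a did not move beyond their error. Of the 31 genes 4 fell and 0 rose, against 10.3% of all genes tested (4.82% higher and 5.52% lower), and the median change was -0.04 beside 0.03 over all genes. These comparisons share the untreated mice, so that a high untreated value enters both with opposite sign.

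Acot2 lay between 9.86 and 11.33 (median 10.32) with the control antibody. In untreated mice it was 11.08, 11.26, 11.76 and 10.54 in experiment 7 and 10.29, 10.95, 10.69 and 10.96 in experiment 10. It fell by 0.59 ± 0.15 (SE), or 1.50-fold (limma adjusted p = 0.00737), with like values in experiment 7 (-0.58) and experiment 10 (-0.59). Acot1 lay between 6.74 and 7.59 (median 7.03) with the control antibody and fell by 0.77 ± 0.22 (SE), or 1.70-fold (limma adjusted p = 0.0189), with -0.91 in experiment 7 and -0.63 in experiment 10. For both genes the ranges of the groups overlapped, and among all 31 genes 0 had ranges that did not, against 0.0239% of all genes. Eci2, the peroxisomal and mitochondrial isomerase, fell by 0.26 ± 0.08 (SE) and Acaa2, the spiral's thiolase, by 0.20 ± 0.07 (SE), with limma adjusted p of 0.0312 and 0.0412.

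Ppara was at -0.06 and Ppargc1a at 0.06 in this comparison. Slc27a2 was at -0.40 and Acaa1b at -0.61, and neither passed. Of the other pathway genes, Angptl4 fell by 1.60 (SE 0.34; 3.02-fold), Cd36, a fatty acid translocase, by 1.05 (SE 0.30), Slc27a1 by 0.34 and Plin2, a lipid droplet coat protein, by 0.23, while Ppard (0.49), Amacr (0.29), Slc5a8 (0.19) and Hnf4a (0.09) rose.

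In the same comparison 9 of 10 macrophage markers were lower, with a mean level from 9.19 to 10.24 against 9.45 to 10.79, and 2 of 7 neutrophil markers were lower, and their part in these changes was not tested. Within experiment 10, 1 member, Acot2, passed (9.95% of all genes), and within experiment 7 none did (2.46%), with no member differing between the experiments (0.0160% of all genes). Leaving out 1 mouse at a time gave between 1 and 7 calls, the most without untreated replicate 5 of experiment 7. Acot1, Eci2 and Acaa2 all lost their calls without untreated replicate 2 or 3 of experiment 7 or untreated replicate 5 of experiment 10. Acot2 kept its call in all 23 such fits, Acot1 lost it in 3, Eci2 in 7 and Acaa2 in 11.

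**Figure D2:**
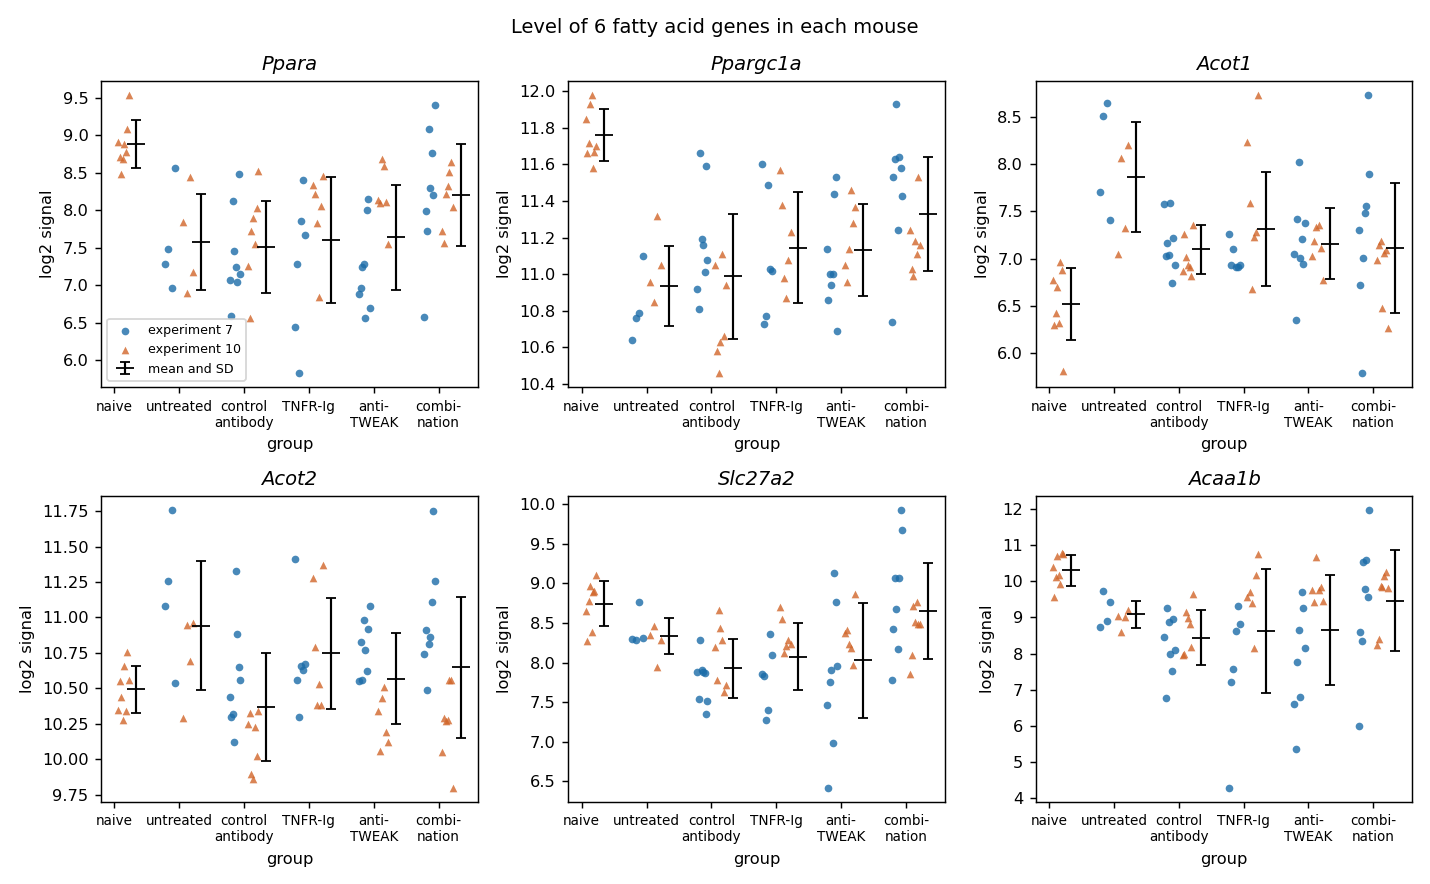
Log2 signal of 6 genes in each mouse by group, with circles for experiment 7 and triangles for experiment 10, and the mean and SD of each group as a black bar. Ppargc1a of untreated mice lies below and Acot1 above every naive mouse, the medians of Acot1 (7.88) and Acot2 (10.96) are highest in untreated mice, and Acaa1b spreads from 4.28 to 11.99 among treated mice.

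TNFR-Ig was compared with the control antibody. TNFR-Ig mice had received no control antibody, so that neutralised TNF and the lack of this antibody cannot be told apart here. No member passed, against 4.08% of all genes tested, although 26 of 31 lay above 0 with a median of 0.06 beside 0.00 over all genes. The nearest were Cpt1a (0.18, limma adjusted p = 0.0556) and Acot2 (0.39, limma adjusted p = 0.0627). Ppara lay between 5.83 and 8.46 (median 7.84) with TNFR-Ig and between 6.57 and 8.53 (median 7.46) with the control antibody. Ppargc1a lay between 10.73 and 11.60 (median 11.06) and between 10.46 and 11.66 (median 11.01), so that both regulators overlapped almost fully.

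Within experiment 10, with 6 TNFR-Ig and 7 control antibody mice, 4 members passed, all higher, against 8.86% of all genes (4.88% higher): Cpt1a (0.27), Acaa2 (0.26), Eci2 (0.36) and Acot2 (0.66). Within experiment 7 no member passed, as did 0.00% of all genes, and 12 of 31 members lay above 0 there against 28 of 31 in experiment 10. The difference between the experiments passed for no member (0.00% of all genes). In 27 fits over both experiments that left out 1 mouse, 0 to 2 members passed, Cpt1a in 6 and Acot2 in 4, with the lowest adjusted p without TNFR-Ig replicate 3 and control antibody replicate 5 of experiment 7. Against untreated mice no member passed either (3.01% of all genes). Of the other pathway genes, Klf15, a transcription factor of fasting (1.08 ± 0.31, SE), Angptl4 (1.08 ± 0.30), Slc27a1 (0.35) and Cpt1c (0.27) were higher than with the control antibody. Group means in untreated, control antibody and TNFR-Ig mice were 10.21, 8.63 and 9.70 for Angptl4 and 10.96, 10.63 and 10.97 for Slc27a1. They were 4.24, 3.72 and 4.77 for Klf15 and 4.26, 4.14 and 4.41 for Cpt1c. In this comparison 4 of 10 macrophage markers and 2 of 6 fat cell markers were also higher, and their part in these changes was not tested.

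Anti-TWEAK was compared with the control antibody in the same way. No member passed, against 2.80% of all genes tested, and none of the other pathway genes did. The median of the 31 genes was 0.02 and the gene with the smallest p was Hsd17b4, a peroxisomal bifunctional enzyme (0.13, limma adjusted p = 0.248). Ppara ran from 6.56 to 8.68 (median 7.78) and Ppargc1a from 10.69 to 11.53 (median 11.09). Against untreated mice 1 member passed, Acot1, which was lower, against 6.10% of all genes.

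The experiments differed. In experiment 10, 28 of 31 members lay above 0 and 4 rose, against 8.64% of all genes (5.29% higher): Ppargc1a (0.43), Ehhadh (0.42), Cpt1a (0.26) and Acadm (0.24). In experiment 7, 10 of 31 lay above 0 and none passed, as did 0.00% of all genes. TNFR-Ig, set against the same control antibody mice, also had more members above 0 in experiment 10 than in experiment 7. Members varied together from mouse to mouse, so that these counts are not of independent genes. For the mice compared here the experiments also differ in array run. The difference between the experiments was tested as an interaction and passed for 2 members, against 1.72% of all genes tested.

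The first was Cpt2, the inner carnitine palmitoyltransferase. In experiment 7 it lay between 11.06 and 11.48 (median 11.30) with anti-TWEAK and between 11.39 and 11.73 (median 11.55) with the control antibody. In experiment 10 it lay between 11.70 and 12.01 (median 11.90) and between 11.52 and 11.82 (median 11.74). It was thus at -0.26 in experiment 7 and 0.18 in experiment 10, and the difference was 0.45 ± 0.12 (SE; limma adjusted p = 0.0380). The other was Acadm, with -0.12 in experiment 7 and 0.24 in experiment 10 and a difference of 0.36 ± 0.10 (SE; limma adjusted p = 0.0342). Acadm ran from 11.89 to 12.24 with anti-TWEAK and from 11.94 to 12.34 with the control antibody in experiment 7, and from 12.24 to 12.43 and from 12.04 to 12.26 in experiment 10.

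Acadvl (0.35) and Hadha (0.41), both of long-chain oxidation, had differences of like size that did not pass (limma adjusted p = 0.0501 for both). The call of Acadm was lost in 12 and that of Cpt2 in 13 of 29 fits that left out 1 mouse, the count running from 0, as without control antibody replicate 3 of experiment 7, to 7, without anti-TWEAK replicate 6 of that experiment. With weights for the arrays 12 members passed, and with every probe set tested 0 did. The shares of all genes under these settings are not given.

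**Figure D3:**
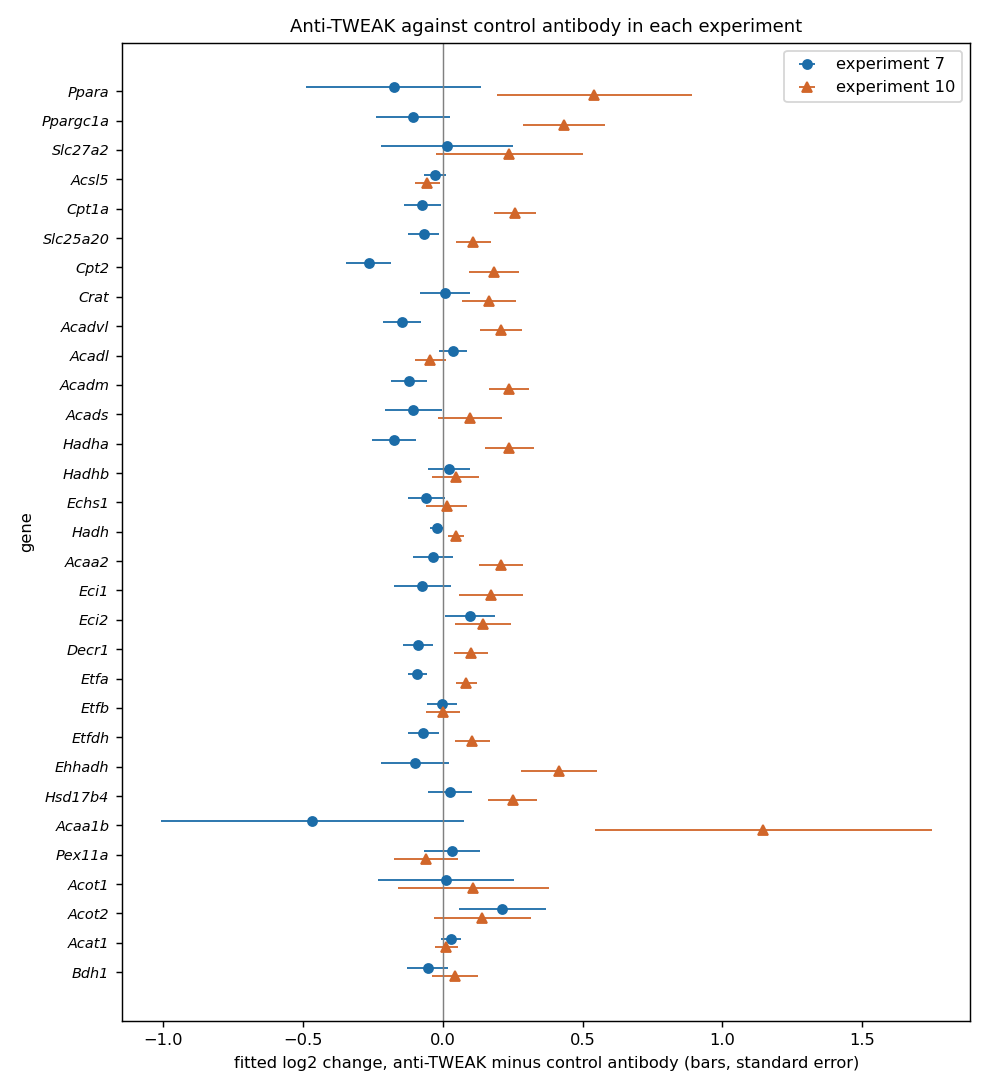
Fitted log2 change between anti-TWEAK and control antibody mice for each of the 31 genes, with circles for experiment 7, triangles for experiment 10 and bars for the standard error. In experiment 10, 28 of 31 genes lie above 0, and in experiment 7, 10 of 31.

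Mice given both agents were compared with control antibody mice to see what blocking both cytokines changed. The regulators Ppara and Ppargc1a, the shuttle genes Cpt1a and Slc25a20, the transporter Slc27a2 and the peroxisomal genes Ehhadh and Hsd17b4 were higher. Of the 31 genes 9 rose and 1 fell, against 31.2% of all genes tested (14.2% higher and 17.0% lower), and the median was 0.06 beside 0.00 over all genes. The electron transfer, thioesterase and ketone body genes had 0 of 3, 0 of 2 and 0 of 2 members past the threshold.

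Ppara lay between 6.58 and 9.40 (median 8.22) with the combination and rose by 0.69 ± 0.23 (SE), or 1.61-fold (limma adjusted p = 0.0201). Ppargc1a lay between 10.74 and 11.93 (median 11.24) and rose by 0.34 ± 0.10 (SE), or 1.26-fold (limma adjusted p = 0.00974). Slc27a2 lay between 7.78 and 9.93 (median 8.51), against 7.35 to 8.66 (median 7.88) with the control antibody, and rose by 0.72 ± 0.18 (SE), or 1.65-fold (limma adjusted p = 0.00217). For each of these the upper end of the combination range lay above all control antibody mice and the lower part overlapped them. None of the 31 genes had ranges apart (0.00798% of all genes).

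The other calls were of smaller changes with smaller standard errors. Cpt1a lay between 12.02 and 12.59 (median 12.22) with the combination and between 11.87 and 12.19 (median 11.98) with the control antibody, and rose by 0.22 ± 0.05 (SE; limma adjusted p = 0.00179). Ehhadh rose by 0.31 (SE 0.09), Hsd17b4 by 0.16 (SE 0.06), Slc25a20 by 0.14 (SE 0.04), Acadm by 0.13 (SE 0.05) and Hadh, the spiral's second dehydrogenase, by 0.05 (SE 0.02). Acsl5, an acyl-CoA synthetase, was the 1 member that fell, by 0.10 ± 0.03 (SE; limma adjusted p = 0.00747). Acaa1b had the largest value, 1.02 ± 0.42 (SE), and did not pass (limma adjusted p = 0.0537). It ran from 5.98 to 11.99 with the combination and from 6.77 to 9.65 with the control antibody, the widest spread of all members.

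Within experiment 7, 6 members passed, 5 higher and 1 lower (19.8% of all genes): Ppara (0.86), Slc27a2 (1.07), Acot2 (0.42), Cpt1a (0.22), Slc25a20 (0.16) and Acsl5 (-0.12). Within experiment 10, 2 passed (9.69% of all genes), Cpt1a (0.21) and Hsd17b4 (0.25), while Ppara was at 0.50 ± 0.33 (SE) and Slc27a2 at 0.32 ± 0.25 and did not pass. No member passed a test of the difference between the experiments (0.0319% of all genes). In 30 fits that left out 1 mouse, Ppara, Ppargc1a, Slc27a2, Slc25a20, Acsl5, Ehhadh and Cpt1a kept their calls, Acadm lost its call in 18, Hsd17b4 in 6 and Hadh in 1. Combination replicates 7 and 8 of experiment 7, which belong to the second array run, held the highest combination values of Ppara (9.40), Slc27a2 (9.93 and 9.67) and Acaa1b (11.99). Without them 7 members passed: Slc27a2 stood at 0.52 (adjusted p = 0.0182), and Ppara at 0.57 (adjusted p = 0.0664), Acadm and Hsd17b4 lost their calls. Ppargc1a lost its call with its probe set of largest spread (0.25, adjusted p = 0.178). Acaa1b gained a call in 7 of the 30 fits that left out 1 mouse, with a limma adjusted p of 0.013 without combination replicate 1 of experiment 7.

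Against untreated mice 4 members passed (24.6% of all genes): Ppargc1a (0.39) and Ehhadh (0.32) were higher, and Acot1 (-0.75) and Acadl (-0.16) lower. The calls therefore depended on the control group, and Acot1 and Acadl, which were high in untreated mice, entered only there. No member differed between the combination and TNFR-Ig (6.71% of all genes), where Slc27a2 at 0.58 (limma adjusted p = 0.0535) and Acsl5 at -0.09 (limma adjusted p = 0.0547) were nearest. Without combination replicate 1 of experiment 7, Slc27a2, Acsl5, Ppara and Ehhadh passed in that comparison. No member passed either between the combination and anti-TWEAK (0.00% of all genes) and for departure from the sum of the single treatments (0.319% of all genes). These comparisons share their control groups.

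Of the other pathway genes, 3 of 13 of uptake and activation rose with the combination, Slc22a4 (0.71 ± 0.21, SE), Slc27a1 (0.31) and Slc22a5, the carnitine transporter (0.23). Slc22a4 lay near the floor, with a mean of 2.46 with the control antibody and 3.17 with the combination. The peroxisomal genes Pex16, Acaa1a and Pex19 rose by 0.22, 0.21 and 0.16, Acad11 by 0.21, Rxra, the partner receptor of the PPARs, by 0.21, Acss2 by 0.14 and Txnip by 0.09. Of the marker lists, 2 of 17 colonocyte markers were higher (mean level from 13.10 to 13.58 against 13.14 to 13.33 with the control antibody) and 4 of 7 neutrophil markers lower (4.74 to 9.34 against 6.78 to 10.73), and 1 exocrine pancreas and 2 fat cell markers were higher. Their part in the rise of the fatty acid genes was not tested.

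Combination mice were compared with naive mice for how far they still differed. Ppargc1a was lower, at -0.48 (SE 0.13; 1.40-fold; limma adjusted p = 0.00359), as it was in untreated mice. Acat1, the mitochondrial acetoacetyl-CoA thiolase of ketone body synthesis, was at -0.12 (SE 0.03; limma adjusted p = 0.00802), although its change of -0.04 in colitis had not passed. These were 2 of 31 members, against 25.3% of all genes tested (13.3% higher and 12.0% lower), and 24 of 31 lay below 0 with a median of -0.05. Ppara was at -0.47 with an SE of 0.29 (limma adjusted p = 0.235), which shows neither a difference nor its absence, and Acot1 was at 0.55 (limma adjusted p = 0.0676). Both calls held in all 23 fits without 1 mouse, but that of Acat1 was lost with the probe set of largest spread (-0.01, adjusted p = 0.902), without the experiment term (-0.06, adjusted p = 0.231) and in a fit of the compared groups only (-0.10, adjusted p = 0.0829). Within experiment 10, Ppargc1a, Echs1, Eci1 and Acat1 were lower (29.4% of all genes). Of the other genes, Angptl4 (1.41), Creb3l3 (1.14) and Acsl4 (0.27) were still higher and Slc22a4 (-0.95, with values near the floor), Esrrg, an estrogen-related receptor (-0.76), Acot4 (-0.72) and Slc5a8 (-0.22) still lower.

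The control antibody mice of both experiments were compared with each other, a difference that holds experiment and array run together. No member differed between experiment 10 and experiment 7 there, against 4.84% of all genes tested.

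The members were then compared within groups: how they varied from mouse to mouse, as deviations from the mean of the mouse's own group and experiment, over 72 mice. The spread differed greatly between members, from an SD of 1.10 for Acaa1b, 0.63 for Ppara, 0.49 for Acot1 and 0.48 for Slc27a2 down to 0.05 for Hadh. Of 465 pairs of members, 225 passed, with a Benjamini-Hochberg adjusted permutation p under 0.05 for both Pearson's r and Spearman's rho, 214 positive and 11 negative. The median r was 0.29. Pairs of other genes were not counted, so that no share over all genes stands beside this. Ppara and Acot1 each had high correlations with other members and a low one with each other, and the members were ordered around them.

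Ppara, Ehhadh, Acaa1b, Acadvl, Hadha, Acads, Decr1, Etfdh, Eci1 and Slc25a20 varied together, with a median r of 0.68 over their 45 pairs (lowest 0.36, highest 0.83). Acot1, Acot2, Acadl, Eci2, Acaa2 and Pex11a formed another set, with a median r of 0.62 over 15 pairs (lowest 0.48, highest 0.78). Between the sets the median r was 0.03 over 60 pairs, of which 11 passed, 10 of them positive, with a highest r of 0.61. These sets were picked from the same correlations, which fixes their separation, and have no test of their own.

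Ppara and Acaa1b had r = 0.76 and rho = 0.78, with r = 0.79 in experiment 7, 0.72 in experiment 10 and 0.76 without the 2 mice farthest on Ppara. Ppara and Ehhadh had r = 0.74 (rho = 0.69), with 0.85 and 0.54 in the experiments and 0.73 without 2 mice. Acot1 and Acot2 had r = 0.64 (rho = 0.53), with 0.60 and 0.69 in the experiments and 0.57 without 2 mice (permutation, adjusted p = 4.51e-05 for r). Ppara and Acot1, the receptor and its known target, had r = 0.03 and rho = 0.02 (permutation, adjusted p = 0.854 and 0.863). Ppara and Ppargc1a lay between these, with r = 0.54 (rho = 0.44), 0.63 in experiment 7, 0.36 in experiment 10 and 0.45 without 2 mice.

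The lowest correlation was that of Ppargc1a and Acsl5, with r = -0.59 and rho = -0.48. It was -0.79 in experiment 7 and -0.14 in experiment 10, so that it rests on experiment 7. Hadha and Hadhb, the subunits of one enzyme with a shared promoter, had r = -0.07 (rho = -0.12; permutation, adjusted p = 0.668). This value depended on the probe set, as the other probe sets of Hadhb gave r = 0.75 and 0.21 with Hadha.

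Each member was also set against the cell type markers. The share of all genes that pass with each marker list was not computed. The counts of members therefore do not set them apart from other genes. With the mean of the 17 colonocyte markers, 18 of 31 members passed, all positive, with a median r over all members of 0.47. Ppara had r = 0.70 (rho = 0.77), with 0.72 in experiment 7, 0.70 in experiment 10 and 0.76 without the farthest 2 mice (permutation, adjusted p = 0.000248 for r). Acaa1b had 0.80, Ehhadh 0.73 and Acads 0.72, whereas Acot1 was at 0.00 (permutation, adjusted p = 0.986), Acot2 at -0.19 and Ppargc1a, which did not pass, at 0.24.

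With macrophage markers 18 members passed, 3 positive and 15 negative, and with neutrophil markers 21, 4 positive and 17 negative. Acot1 was among the positive ones, with r = 0.36 (rho = 0.40) for macrophage and 0.42 (rho = 0.44) for neutrophil markers, and Acot2 had 0.35 with neutrophil markers. Acaa2 (0.08 with both lists) and Pex11a (0.27 and 0.29), which varied with Acot1, did not pass. Hadh had r = -0.68 with both lists. Several negative values were weaker in experiment 10 than in experiment 7. With macrophage markers these were -0.11 against -0.65 for Ppara, -0.07 against -0.62 for Ppargc1a and -0.12 against -0.75 for Acadm. With neutrophil markers they were -0.21 against -0.57 for Ppara and -0.13 against -0.55 for Slc25a20. Others were alike, as for Acads, with -0.46 against -0.55 for macrophage and -0.63 against -0.51 for neutrophil markers. Fat cell markers passed with 0 of 31 members, skeletal muscle markers with 1 (Crat, carnitine acetyltransferase, r = 0.44), goblet cell markers with 3, smooth muscle markers with 7 and exocrine pancreas markers with 6, all negative. The value of Crat was 0.61 in experiment 7, 0.03 in experiment 10 and 0.27 without the 2 mice farthest on Crat. RNA quality was read from Actb probe sets at either end of the transcript, whose difference ran from 0.93 to 1.50, and 3 members passed with it: Hadhb (0.38), Hsd17b4 (0.36) and Etfb (-0.48). Points share the arrays and their normalization, and these correlations are descriptions of these mice.

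**Figure D4:**
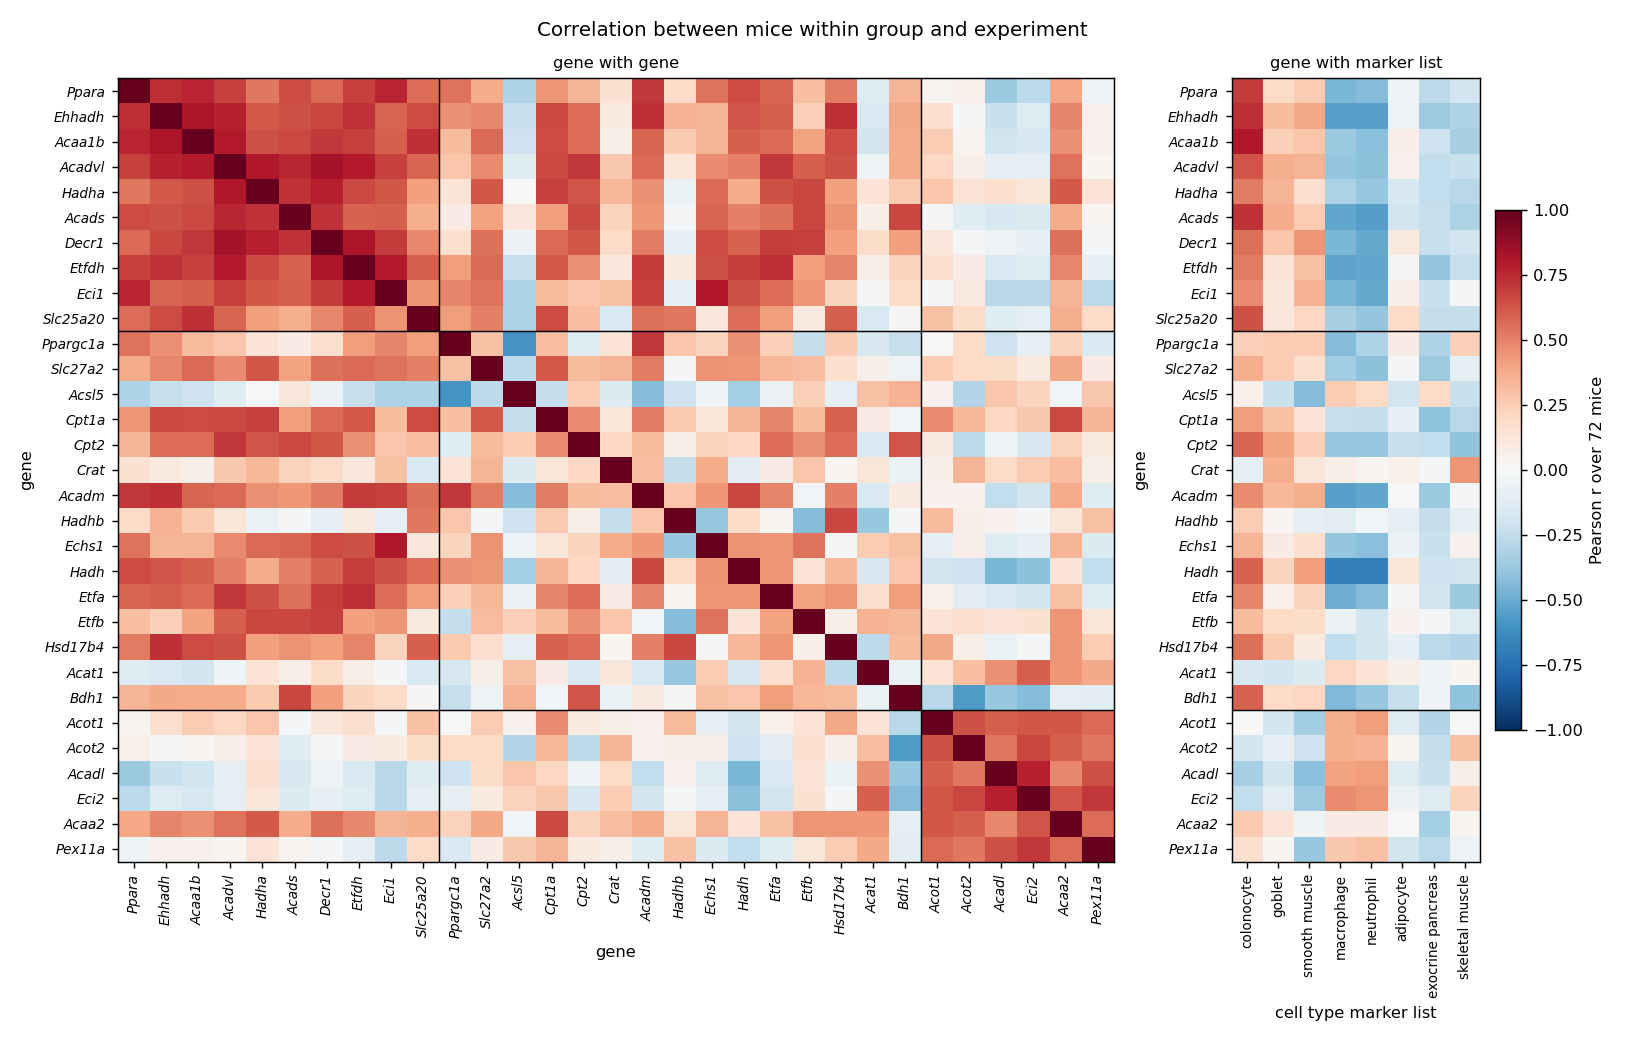
Pearson r over 72 mice of deviations from the mean of each mouse's group and experiment, between the 31 genes at left and between genes and 8 cell type marker lists at right, with lines around the set near Ppara at the top and the set near Acot1 at the bottom. The block of Ppara is positive with colonocyte markers and negative with neutrophil markers, and Acot1 is near 0 with colonocyte markers and at 0.42 with neutrophil markers.

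**Figure D5:**
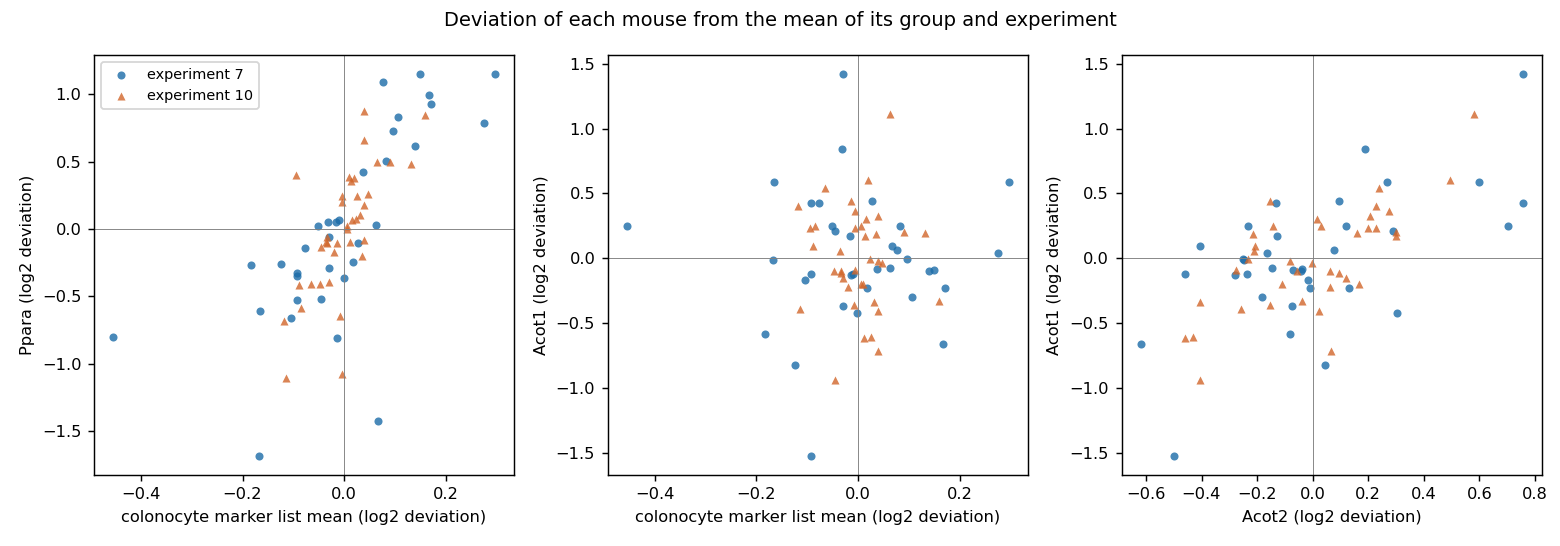
Deviation of each of 72 mice, in log2 units, from the mean of its group and experiment, with circles for experiment 7 and triangles for experiment 10. Ppara rises with the colonocyte marker mean (r = 0.70), Acot1 does not (r = 0.00), and Acot1 rises with Acot2 (r = 0.64).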

How the data were processed

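Arrays of the Affymetrix type were hybridised with colon RNA of 72 mice, 1 mouse per array by the labels, which also gave the groups. The deposited values, 1 per probe set and array, were taken as log2 signals normalised by the authors, because they run from a floor of 2.077 to 15.98. RMA, GCRMA, R (2.11.1) and limma (3.4.5) are named per the submitters' processing notes, without saying which produced the table. Of 45101 probe sets, 34945 carry 1 symbol in the platform annotation (99.4% of these updated by Entrez identifier), 932 several, 9160 none, and 64 are controls. Of 18193 genes, 12534 were tested, after removal of those with a mean under 2.419, the 40th percentile of probe set means. Between 36.0% and 37.8% of probe sets per array lay within 0.1 of the floor. The labels of naive replicate 1 contradict each other, as its treatment label is that of the combination, and its title was followed. Without this array Eci1 and Bdh1 lost their calls in colitis.

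limma 3.58.1 (R 4.3.3) fitted group and experiment to every array, with two-sided tests and Benjamini-Hochberg adjustment over all genes tested. Values within an experiment and differences between experiments come from a model with 1 mean per group and experiment. Correlations used 100000 two-sided permutations over mice (scipy 1.17.1, Python 3.11.15), so that 1e-05 is the smallest p they can give, with adjustment over the 465 pairs of members or the 248 pairs of member and marker list. Sequences were aligned with Biopython 1.88. Members and lists were chosen with earlier results of these data known. Levels by group are printed for Ppara, Ppargc1a and members called in the first 6 comparisons with a change of at least 0.5, and up to 3 rises and 3 falls of each list of other pathway genes are named. Levels of other members, such as Acaa1b and Cpt1a, were picked for printing with their values in view. The fits were tested on simulated data. Alternatives covered the dim filter, the choice of probe set, the experiment term, normalization, array weights, moderation, the control group and single mice left out.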

Additional observations from a re-analysis of the deposited data

Results flagged for a closer look

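Etfa, the alpha subunit of the electron transfer flavoprotein, lay at 13.52 in untreated replicate 2 of experiment 10, apart from the other untreated mice, the nearest of which was at 13.61. Among the 62 groups of values tested for a sample that stands apart, this was the only 1, where chance gives about 1 in 20. The difference of the anti-TWEAK effect between experiment 10 and experiment 7 passed its own test for Cpt2 (0.45) and for Acadm (0.36), both genes being below 0 in experiment 7 and above 0 in experiment 10. What lies behind this difference was not tested.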

How the results depend on the processing

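Counts of members past the threshold moved with the arrays in the fit, and no member's call reversed under the alternatives tried. Without the second run means here that only the experiment 7 combination arrays of that run were left out. Most counts stand without the share of all genes called under the same setting. Such counts do not tell a change of the members from a change of all genes. In colitis 8 members passed (47.8% of all genes). There were 5 with every probe set tested, 17 with experiment 10 alone (47.9%) and 14 with the compared groups only (41.0%). When 1 mouse was left out, 4 to 10 passed. For the control antibody (4) there were 0 with experiment 7 alone, 8 with array weights and 1 to 7 without 1 mouse. For TNFR-Ig (0) there were 6 with experiment 10 alone, 2 with array weights or without the experiment 7 combination arrays of the second run, 1 with quantile normalization, with the compared groups only or without the 2 arrays of lowest weight, and 0 to 2 without 1 mouse. For anti-TWEAK (0) there were 8 with experiment 10 alone and 1 against untreated mice (6.10% of all genes). For the combination (10) there were 5 with experiment 10 alone, 1 with experiment 7 alone, 4 against untreated mice, 7 without the second run, where Ppara, Acadm and Hsd17b4 were lost, and 8 to 12 without 1 mouse. For the combination against naive mice (2) there were 7 with experiment 10 alone, 4 with array weights and 2 to 3 without 1 mouse. For the combination against TNFR-Ig (0) there were 2 with experiment 10 alone, 4 with array weights, 1 with quantile normalization, with trend and robust moderation, without the second run or without the arrays of lowest weight, and 0 to 4 without 1 mouse. Departure from additivity (0) had 4 with experiment 10 alone. The anti-TWEAK difference between experiments (2) had 1 with no filter on dim genes, 0 with every probe set, 4 with quantile normalization, 12 with array weights, 5 with trend and robust moderation, 6 without the second run or without the arrays of lowest weight, and 0 to 7 without 1 mouse. Between experiments in control antibody mice (0) there were 3 with array weights, 1 without the second run, 2 without the arrays of lowest weight and 0 to 1 without 1 mouse. The cause of these shifts was not tested. Some of these settings also bring a smaller number of arrays or a larger number of tests, and the part of these was not tested either. Leaving out the arrays of lowest weight was chosen after seeing the data.

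With a replicate block, whose estimated correlation was -0.0165, the counts were unchanged at 8, 4, 0, 0, 10, 2, 0, 0 and 0 for the 9 comparisons. Over 132 pairs of same-numbered mice of different groups the median correlation of deviations was -0.005, and 48 pairs lay over 0.1. Limits are the 8 untreated mice, naive mice in 1 experiment, single probe sets for most statements, and whole tissue of varying composition.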

Other observations

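Genes of the opposite pathway, fatty acid synthesis, were looked at after their values had been seen, as a list of 12 genes. With the control antibody against no treatment, 6 of them rose and none passed as lower, among them Fads1, a desaturase (0.42), Acaca (0.34) and Fasn (0.33), which carry out the first steps of synthesis, Srebf1, their regulator (0.30), Elovl6 (0.26) and Scd2 (0.17), against 4.82% of all genes higher (limma, adjusted p under 0.05). In colitis 1 of the 12, Insig1, which restrains sterol regulation, fell by 0.42, and with the combination Insig1 rose by 0.18.

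Anti-TWEAK mice of experiment 7 had low values of Acaa1b, from 5.35 to 9.70 (median 7.95), beside 9.44 to 10.67 (median 9.75) in experiment 10. TNFR-Ig mice ran from 4.28 to 9.33 in experiment 7 and from 8.14 to 10.75 in experiment 10. For Acat1 the other probe sets correlated at -0.03 and 0.02 with the one used.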
